A study of Mus musculus with 34 samples.

Results

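The 28 genes described here encode the enzymes that build cholesterol, the regulators that set their transcription, and carriers that move cholesterol through and out of the cell. They were taken by gene symbol, as a list, from the 48795 genes of a count table of mouse sensory ganglia, and all 28 were among the 19565 genes tested. They comprise 19 enzymes of synthesis, 5 genes of the sterol regulatory element-binding protein (SREBP) system, and 4 genes of sterol transport. No receptor for lipoprotein uptake is among the 28. The tissue was dorsal root ganglia L4, L5 and L6, where the somata of sensory neurons lie, dissociated and enriched for neurons on 20% Percoll. It was taken 3 days after a crush of the left sciatic nerve from mice 8 to 12 weeks old. There were 17 mice, each with a library of the crushed side (injured) and another of the opposite side (naive).

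ATF3 is a transcription factor of the ATF/CREB family, induced in sensory neurons by axon damage. The 8 ATF3-cKO mice (5 female, 3 male) were Adv-Cre+ with ATF3-fl on both alleles, so that Cre expressed from the sensory neuron gene Avil removes Atf3 in those neurons. The 9 ATF3-wt mice kept Atf3 intact and were of 3 kinds. There were 4 Cre-negative females with 1 floxed allele, 2 Cre-negative females without a floxed allele, and 3 Cre-positive males without a floxed allele. In the controls, Cre and sex therefore cannot be told apart. By the labels, all cKO mice carried Cre and no control female did, so among females Cre and the loss of Atf3 cannot be told apart. The groups were 8 cKO injured, 9 wt injured, 8 cKO naive and 9 wt naive libraries, and mice are named by genotype and animal number, as in wt-176.

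Levels are CPM, counts scaled to library size after TMM normalization. Changes are log2 fold changes from edgeR's quasi-likelihood test, with a standard error (SE) derived from the fold change and that test's F statistic. A gene was called when its Benjamini-Hochberg adjusted p, over all 19565 genes, was under 0.05. Library totals ran from 35732193 to 77632944 counts. Whole-gene counts of Atf3, which do not check a floxed deletion, averaged 263.5 ± 59.6 CPM in cKO injured, 364 ± 145 CPM in wt injured, 119 ± 25.6 CPM in cKO naive and 125 ± 30.8 CPM in wt naive libraries (SD, n = 8, 9, 8 and 9). Avil lay at 432.5 to 555.5 CPM in 20 libraries of Cre-positive mice and at 792.5 to 1036 CPM in 10 of Cre-negative mice. Mouse cKO-131 lay below both ranges, with 88.8 and 83.4 CPM on the injured and naive side. Mouse wt-150, labelled Cre-negative, lay within the Cre-positive range, with 517 and 499 CPM on those sides. Results were therefore also computed without cKO-131 and wt-150. Counts of 3 ribosomal RNA spacer genes, as a percentage of the library, split the mice into 6 at or below 5.503% and 11 at or above 6.934%, and results were also computed within each set and each sex. The 10 sensory neuron markers summed to between 9770 and 16100 CPM in every library, against 527 to 1050 CPM for 13 Schwann cell markers, 439 to 1410 CPM for 11 satellite glia markers and 3.98 to 71.2 CPM for 12 macrophage markers. In such bulk samples, fewer cells of a type and less RNA per cell cannot be told apart.

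As background, cholesterol is built from acetyl-CoA through mevalonate, isoprenoids and squalene to lanosterol, which late enzymes trim to cholesterol. SREBP transcription factors are held in the endoplasmic reticulum with the escort protein SCAP by INSIG proteins while sterols are plentiful, and on sterol loss they travel to the Golgi, are cut, and switch on the genes of synthesis. NF-Y, which binds the CCAAT box, works beside SREBP at many of these genes, and a regrowing axon needs cholesterol for new membrane.

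RefSeq promoters (build GRCm38.p6) were available for 22 of the 28 genes, and the 250 bases before each start were searched on both strands for 4 motifs. Sequences are shown for the 5 of these 22 genes with the smallest p in either of 2 comparisons, the injury effect of the controls and the difference of the injury effects. Hmgcs1 is added because it alone held a sterol regulatory element, and was chosen after that match was seen. Capitals mark CCAAT or its complement ATTGG, and in Hmgcs1 also the sterol element TCACCCCAC.

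Hsd17b7, chr1:169969206-169969455, minus strand: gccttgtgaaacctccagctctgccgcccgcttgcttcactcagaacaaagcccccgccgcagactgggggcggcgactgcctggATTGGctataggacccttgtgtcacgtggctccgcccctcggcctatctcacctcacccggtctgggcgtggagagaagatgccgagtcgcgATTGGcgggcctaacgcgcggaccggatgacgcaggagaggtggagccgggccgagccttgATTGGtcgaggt
Mvd, chr8:122443423-122443672, minus strand: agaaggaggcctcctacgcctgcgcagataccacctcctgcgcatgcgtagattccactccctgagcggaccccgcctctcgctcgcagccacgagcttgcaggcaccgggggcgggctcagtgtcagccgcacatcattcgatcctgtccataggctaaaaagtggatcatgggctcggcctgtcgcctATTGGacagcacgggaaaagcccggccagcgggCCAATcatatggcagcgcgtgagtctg
Mvk, chr5:114444019-114444268, plus strand: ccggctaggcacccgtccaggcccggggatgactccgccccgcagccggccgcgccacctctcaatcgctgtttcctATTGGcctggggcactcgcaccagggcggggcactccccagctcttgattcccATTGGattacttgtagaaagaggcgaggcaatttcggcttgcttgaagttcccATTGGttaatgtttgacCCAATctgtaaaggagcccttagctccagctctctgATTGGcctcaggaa
Ebp, chrX:8193513-8193762, minus strand: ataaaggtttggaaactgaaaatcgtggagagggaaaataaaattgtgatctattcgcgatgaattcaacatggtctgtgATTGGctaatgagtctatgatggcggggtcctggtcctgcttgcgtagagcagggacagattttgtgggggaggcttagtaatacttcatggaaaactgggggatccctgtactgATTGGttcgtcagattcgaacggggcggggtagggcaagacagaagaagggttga
Hmgcs1, chr13:119690101-119690350, plus strand: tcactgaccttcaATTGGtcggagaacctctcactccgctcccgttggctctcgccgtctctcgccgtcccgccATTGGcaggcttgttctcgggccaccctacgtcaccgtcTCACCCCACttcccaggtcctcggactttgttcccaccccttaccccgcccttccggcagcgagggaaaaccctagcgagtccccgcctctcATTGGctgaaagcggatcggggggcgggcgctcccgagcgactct
Abca1, chr4:53159896-53160145, minus strand: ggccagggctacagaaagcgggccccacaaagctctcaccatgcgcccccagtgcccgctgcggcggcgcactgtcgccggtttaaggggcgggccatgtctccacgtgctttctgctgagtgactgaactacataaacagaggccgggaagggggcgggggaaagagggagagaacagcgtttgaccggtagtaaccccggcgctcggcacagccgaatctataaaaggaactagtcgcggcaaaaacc

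The CCAAT box was found in 19 of the 22 genes (86.4%), with 5 matches in Mvk, 3 in Hsd17b7, 3 in Hmgcs1, 2 in Mvd and 2 in Ebp. By the same search it was found in 10133 of 27025 genes (37.5%). Counted per start site instead of per gene, it was in 20 of 30 windows of the members (66.7%) and in 33.8% of all 32851 windows. Abca1, Acat2 and Scap had none of the 4 motifs in any window. The sterol regulatory element TCACNCCAC was in Hmgcs1, at bases -137 to -129 from the start, and in 1.22% of all genes. The AP-1 site TGACTCA was in Dhcr7 and Msmo1 and in 5.16% of all genes, and the cAMP response element TGACGTCA was in 0 of the 22 and 1.77% of all genes. ATF3 belongs to the family of factors that bind these last sites. No matches of different motifs overlapped in the members. A match is a run of letters and not evidence of binding, and its absence applies to this window only.

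Per kilobase of exon, the 28 genes spanned a wide range of levels in the ganglia. In wt naive libraries the median level was highest for Hmgcs1, the synthase that feeds HMG-CoA into the pathway, at 123.7 CPM per kb. Next came Srebf2, Fdft1, Acat2 and Sqle at 50.3, 49.4, 35.8 and 35.2 CPM per kb. The lowest were Idi1, Npc1 and Lss, at 4.34, 4.10 and 4.02 CPM per kb. Neighbours within these runs lay close together: Srebf2 and Fdft1, and Acat2 and Sqle, differed by less than the spread between mice. On the injured side of the controls, Abca1 reached a median of 38.5 CPM per kb, against 14.4 CPM per kb in wt naive libraries, and Hsd17b7 33.1 against 10.4 CPM per kb.

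**Figure D1:**
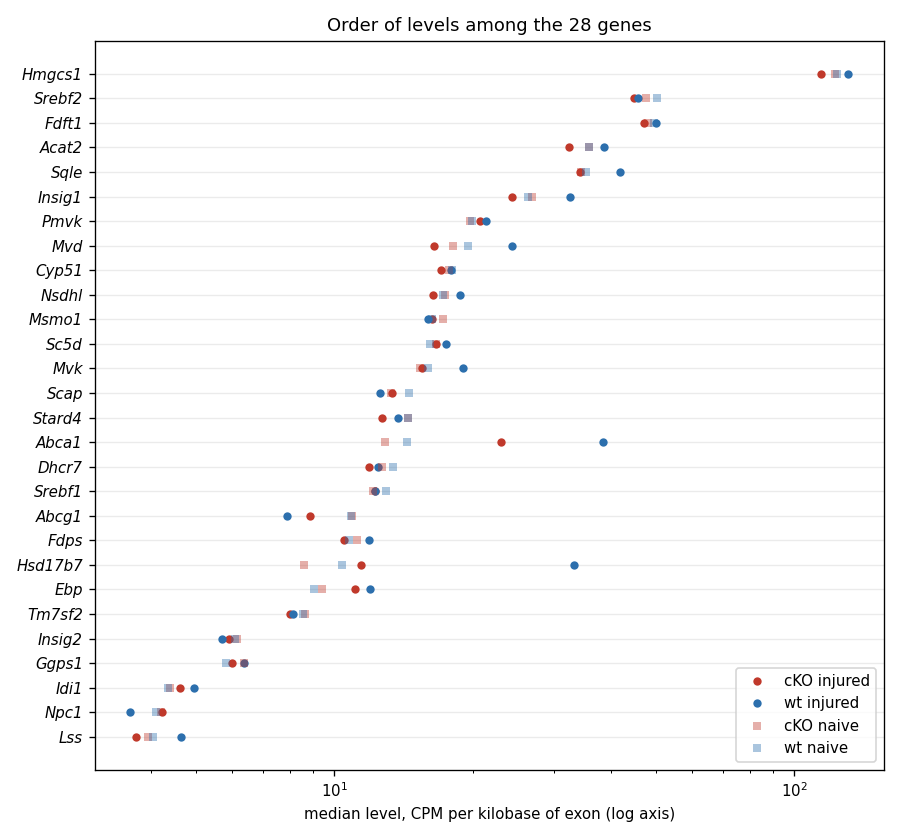
Median level of each of the 28 genes in the 4 groups, in CPM per kilobase of exon on a log axis (circles, injured; squares, naive; red, ATF3-cKO; blue, ATF3-wt). For most genes the 4 points lie close together, while the wt injured points of Hsd17b7 (33.1) and Abca1 (38.5) stand to the right of the others.

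In cKO mice, crush moved 1 of the 28 genes, the cholesterol exporter Abca1, past the threshold, where 3.19% of all genes tested were called, 2.61% higher and 0.583% lower. The median log2 fold change was -0.07 over the 28 genes, against 0.02 over all genes. In the control mice the same crush moved 10 of the 28, 8 higher and 2 lower, where 27.0% of all genes were called, 14.3% higher and 12.7% lower. The members' median was 0.12, against 0.02 over all genes. The genes that rose were 6 enzymes of synthesis (Hsd17b7, Ebp, Mvd, Mvk, Sqle and Acat2), the SREBP brake Insig1, and Abca1. The genes that fell were the exporter Abcg1 and the SREBP escort Scap. With the mouse as a replicate block, so that the sides of each mouse are compared with each other, 4 of the 28 genes were called in cKO mice (2 higher, 2 lower) and 21 in wt mice (15 higher, 6 lower). Of all genes, 8.40% were then called in cKO mice and 40.9% in wt mice.

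Between genotypes on the injured side, 10 of the 28 genes were lower in cKO than in wt mice and none was higher, where 11.1% of all genes were called, 3.57% higher and 7.55% lower. This comparison and the injury effect of the controls share the wt injured libraries. The 10 genes were Hsd17b7, Abca1, Mvd, Insig1, Mvk, Hmgcs1, Sqle, Acat2, Nsdhl and Ebp. Within males, 3 mice of each genotype and all with Cre, 2 of these 10 calls were kept and all 10 kept their sign. Of all genes, 102 were called there. The injury effect itself was smaller in cKO than in wt mice for 6 genes, Hsd17b7, Abca1, Mvd, Mvk, Sqle and Acat2, by the test of the difference of the injury effects, which called 2.84% of all genes, 2.15% lower and 0.695% higher. With the mouse as a block, this test called 13 of the 28 genes as lower and Scap as higher, where it called 7.53% of all genes. On the naive side, 0 of the 28 genes differed, with log2 fold changes from -0.16 to 0.07, and all 28 had overlapping groups, as did all but 0.00511% of the genes tested. There edgeR called 0% of all genes, 0 of the 28 had an unadjusted p under 0.05 (506 of 19565 genes did), and DESeq2 called 0 of the 28.

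**Figure D2:**
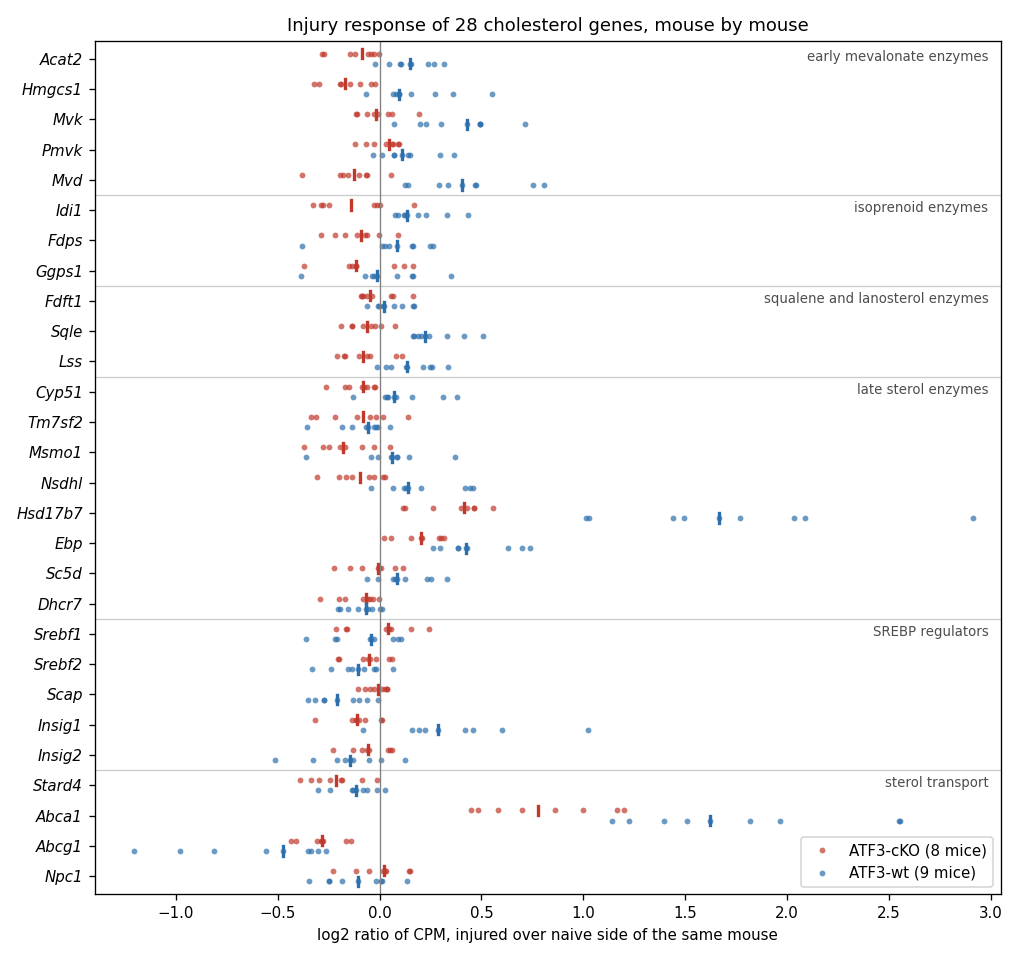
Log2 ratio of CPM, injured over naive side of the same mouse, for each of the 28 genes (red, 8 ATF3-cKO mice; blue, 9 ATF3-wt mice; bar, median). Hsd17b7 and Abca1 were higher on the injured side in all 17 mice, with ratios up to 0.555 and 1.201 in cKO mice against up to 2.912 and 2.555 in wt mice.

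The early mevalonate enzymes turn acetyl-CoA into isopentenyl diphosphate. Of these 5 genes, 0 rose with injury in cKO mice and 3 in wt mice, where 2.61% and 14.3% of all genes did. On the injured side 4 of the 5 were lower in cKO than in wt mice, where 7.55% of all genes were. Mvd, which makes isopentenyl diphosphate, had 26.9, 30.6 and 36.15 CPM (lowest, median, highest) in cKO injured libraries, against 39.3, 45.15 and 64.9 CPM in wt injured libraries. It had 29.7, 33.7 and 37.8 CPM in cKO naive and 28.1, 36.2 and 38.6 CPM in wt naive libraries. The wt injured libraries lay above all others without overlap. Groups that do not overlap were found for 1.67% of all genes between genotypes on the injured side and for 4.53% between sides in wt mice. The injury effect on Mvd was -0.13 in cKO mice (SE 0.08, adjusted p = 0.508), with 1 of 8 mice higher on the injured side. In wt mice Mvd rose by 0.43 (SE 0.08, adjusted p = 4.97e-05), in 9 of 9 mice. On the injured side it was lower in cKO mice, with a log2 difference of -0.63 (SE 0.08, adjusted p = 6.97e-07), and the injury effects differed by -0.56 (SE 0.11, adjusted p = 0.00236). Leaving out wt-176, the highest wt injured library, gave -0.57 for the genotype difference and -0.51 for the difference of the injury effects, both still called.

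Mvk, mevalonate kinase, had 35.0, 41.4 and 48.7 CPM in cKO injured libraries, against 47.0, 50.9 and 70.8 CPM in wt injured libraries. It had 37.4, 41.0 and 45.6 CPM in cKO naive and 33.4, 42.7 and 47.9 CPM in wt naive libraries. The injured groups overlapped by 1 cKO library. With injury Mvk was at -0.00 in cKO mice (SE 0.07, adjusted p = 0.998; 3 of 8 mice higher) and 0.38 higher in wt mice (SE 0.07, adjusted p = 7.62e-05; 9 of 9 mice). The genotype difference on the injured side was -0.40 (SE 0.07, adjusted p = 0.00017) and the difference of the injury effects -0.38 (SE 0.10, adjusted p = 0.0285). That last call was lost without mice cKO-131 and wt-150 (adjusted p = 0.073) and without the filter on low counts (adjusted p = 0.0557).

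Acat2 encodes the cytosolic thiolase that joins acetyl-CoA units in the first step. It had 76.3, 82.4 and 91.8 CPM in cKO injured libraries, against 93.4, 98.1 and 117 CPM in wt injured libraries. It had 77.7, 91.0 and 97.5 CPM in cKO naive and 77.7, 91.1 and 107 CPM in wt naive libraries. The injured groups did not overlap, while each overlapped its naive group. Injury left it lower in 8 of 8 cKO mice, at -0.12 (SE 0.05, adjusted p = 0.254), which did not pass, and higher in 8 of 9 wt mice, at 0.15 (SE 0.05, adjusted p = 0.0165), which passed. The difference of the injury effects was -0.27 (SE 0.07, adjusted p = 0.0238). The wt call was lost without wt-176 and without the filter on low counts, as was the call on the difference, at adjusted p = 0.0524 and 0.113. Counts of Acat2 are uncertain, since the gene has a close paralogue, Acat3.

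Hmgcs1, the HMG-CoA synthase with the sterol element shown above, had 448, 524 and 649.6 CPM in cKO injured libraries, against 575, 601 and 898 CPM in wt injured libraries. It had 510.2, 562 and 746 CPM in cKO naive and 496, 568 and 740.1 CPM in wt naive libraries. All groups overlapped. It was lower on the injured side in 8 of 8 cKO mice and higher in 8 of 9 wt mice, by a median of -0.168 and 0.097. Neither injury effect passed, at -0.17 in cKO mice (SE 0.10, adjusted p = 0.503) and 0.19 in wt mice (SE 0.09, adjusted p = 0.14). The block called the wt effect (0.18, adjusted p = 0.00851) and the difference of the effects (-0.34, adjusted p = 0.0086), as did the fit with the spacer share as a covariate. After injury it was lower in cKO than in wt mice by -0.37 (SE 0.10, adjusted p = 0.00843). Pmvk, phosphomevalonate kinase, averaged 35.2 ± 2.84 CPM in cKO injured and 37.5 ± 4.13 CPM in wt injured libraries (SD, n = 8 and 9), and passed in no comparison. The block called it higher with injury in wt mice (0.13, adjusted p = 0.0102), as did the fit with the spacer share as a covariate.

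The isoprenoid enzymes supply both sterols and the lipid anchors of proteins. None of the 3 genes passed in any comparison of the main test. Of all genes, 27.0% were called with injury in wt mice and 11.1% between genotypes on the injured side. The values on the injured side were -0.28 for Idi1, which isomerises isopentenyl diphosphate, -0.14 for Fdps, which makes farnesyl diphosphate, and -0.00 for Ggps1, which makes geranylgeranyl diphosphate. With the block, Idi1 was called higher with injury in wt mice (0.19, adjusted p = 0.00541), in 9 of 9 mice, and its injury effects differed by -0.32 (adjusted p = 0.0138). The spacer share as a covariate also gave the call in wt mice. With that covariate, and at low spacer share, Idi1 was called lower in cKO mice on the injured side.

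The next enzymes join farnesyl diphosphate to squalene and close the sterol rings. Of these 3 genes, 1 was called, where 14.3% of all genes rose with injury in wt mice. Between genotypes on the injured side, 7.55% of all genes were lower in cKO mice. Sqle, squalene epoxidase, a slow step of the pathway, had 166, 189.7 and 204 CPM in cKO injured libraries, against 209, 232 and 283 CPM in wt injured libraries. It had 183, 190.5 and 219 CPM in cKO naive and 173, 195.5 and 218 CPM in wt naive libraries. The injured groups did not overlap. Its injury effect was -0.07 in cKO mice (SE 0.06, adjusted p = 0.728; 2 of 8 mice higher), against a rise of 0.27 in wt mice (SE 0.05, adjusted p = 0.000248; 9 of 9 mice). It was lower in cKO mice on the injured side, at -0.36 (SE 0.06, adjusted p = 3.48e-05), and the injury effects differed by -0.34 (SE 0.08, adjusted p = 0.0123). Fdft1, squalene synthase, averaged 201 ± 6.95 CPM in cKO injured and 213 ± 12.9 CPM in wt injured libraries, and Lss, lanosterol synthase, 44.3 ± 9.80 and 49.8 ± 5.68 CPM (SD, n = 8 and 9). Neither passed, at -0.08 (adjusted p = 0.212) and -0.17 (adjusted p = 0.347). With the block, Lss was called in wt mice (0.15, adjusted p = 0.00452) and for the difference of the effects (-0.23, adjusted p = 0.023). At low spacer share Lss was called higher with injury in wt mice and lower in cKO mice on the injured side. Fdft1 and Lss overlap genes on the other strand, Ctsb and 4930483K19Rik, as do Cyp51, Mvd, Ggps1, Idi1, Hmgcs1, Srebf1, Scap, Insig2 and Npc1, and the strand setting of the counting is not given in the sources used here.

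Hsd17b7 had the largest changes of the late enzymes. It encodes the reductase of the complex that removes methyl groups from the sterol ring, and also reduces estrone. It had 44.6, 58.3 and 81.8 CPM in cKO injured libraries, against 111, 169 and 323 CPM in wt injured libraries. It had 41.2, 43.9 and 55.7 CPM in cKO naive and 40.2, 52.9 and 67.7 CPM in wt naive libraries. The lowest wt injured library lay above every library of the other groups. Within wt injured, wt-176 and wt-172 stood highest, at 323 and 278 CPM, and wt-141 lowest, at 111 CPM.

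In cKO mice the log2 fold change of Hsd17b7 with injury was 0.37 (SE 0.16, adjusted p = 0.304), with 8 of 8 mice higher by log2 ratios of 0.116 to 0.555. In wt mice it was 1.79 (SE 0.16, adjusted p = 2.79e-10), a 3.46-fold rise seen in 9 of 9 mice, with log2 ratios of 1.014 to 2.912. No cKO ratio reached the lowest wt ratio. Between genotypes, Hsd17b7 was lower in cKO mice after injury by -1.58 (SE 0.16, adjusted p = 2.42e-08), and the injury effects differed by -1.42 (SE 0.23, adjusted p = 0.000239). Without wt-176, these were -1.42 and -1.23, and both were still called. The difference of the effects was -1.30 in mice of low spacer share (adjusted p = 0.0575) and -1.48 in those of high share (adjusted p = 0.0158). It was -1.51 in females (adjusted p = 0.022) and -1.24 in males (adjusted p = 0.626). The genotype difference on the injured side passed in each of those 4 subsets, at -1.44 and -1.68 by share and -1.66 and -1.42 by sex. In males both genotypes carried Cre.

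Ebp, the isomerase that shifts a double bond in the sterol ring, had 21.9, 25.55 and 27.7 CPM in cKO injured libraries, against 24.1, 27.7 and 37.3 CPM in wt injured libraries. It had 20.25, 21.7 and 23.1 CPM in cKO naive and 17.8, 20.9 and 23.0 CPM in wt naive libraries. The wt injured libraries lay above all wt naive ones, and the injured groups overlapped. All 17 mice had more Ebp on the crushed side. Its change was 0.19 in cKO mice (SE 0.07, adjusted p = 0.124; with the block 0.19, adjusted p = 0.0256) and 0.48 in wt mice (SE 0.06, adjusted p = 5.4e-07). The genotype difference on the injured side was -0.22 (SE 0.06, adjusted p = 0.0224). That call was lost without wt-176 (adjusted p = 0.0645), without cKO-131 and wt-150, and without the filter on low counts. The block called the difference of the injury effects (-0.28, adjusted p = 0.0227).

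Nsdhl, the dehydrogenase of the same demethylating complex as Hsd17b7, had 41.4, 46.8 and 58.1 CPM in cKO injured libraries, against 44.6, 53.4 and 81.6 CPM in wt injured libraries. It had 43.2, 49.7 and 60.6 CPM in cKO naive and 36.7, 49.2 and 64.25 CPM in wt naive libraries. All 4 groups overlapped. It was lower in cKO mice on the injured side by -0.27 (SE 0.09, adjusted p = 0.0474), a call lost without cKO-131 and wt-150 and without the filter. The block called it higher with injury in wt mice (0.21, adjusted p = 0.00202) and its injury effects as different (-0.32, adjusted p = 0.0118). The spacer share as a covariate gave the same calls. The other 5 late enzymes passed in no comparison of the main test. They are Cyp51, the lanosterol demethylase, Tm7sf2, a sterol reductase, Msmo1, a methyl sterol oxidase, Sc5d, a desaturase, and Dhcr7, the reductase of the last step. Their genotype differences after injury ran from -0.26 for Cyp51 (adjusted p = 0.0558) to 0.00 for Tm7sf2. The genes with an AP-1 match, Dhcr7 and Msmo1, were at -0.07 and -0.14. In wt mice the block called Cyp51 (0.11, adjusted p = 0.0481) and Sc5d (0.12, adjusted p = 0.0222) higher with injury and Dhcr7 lower (-0.09, adjusted p = 0.0375), and for Cyp51 also the difference of the effects (-0.22, adjusted p = 0.0384). On the injured side Cyp51 was called lower in cKO mice by DESeq2, with the spacer share as a covariate and at low spacer share. With that covariate Sc5d was called higher with injury in wt mice.

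**Figure D3:**
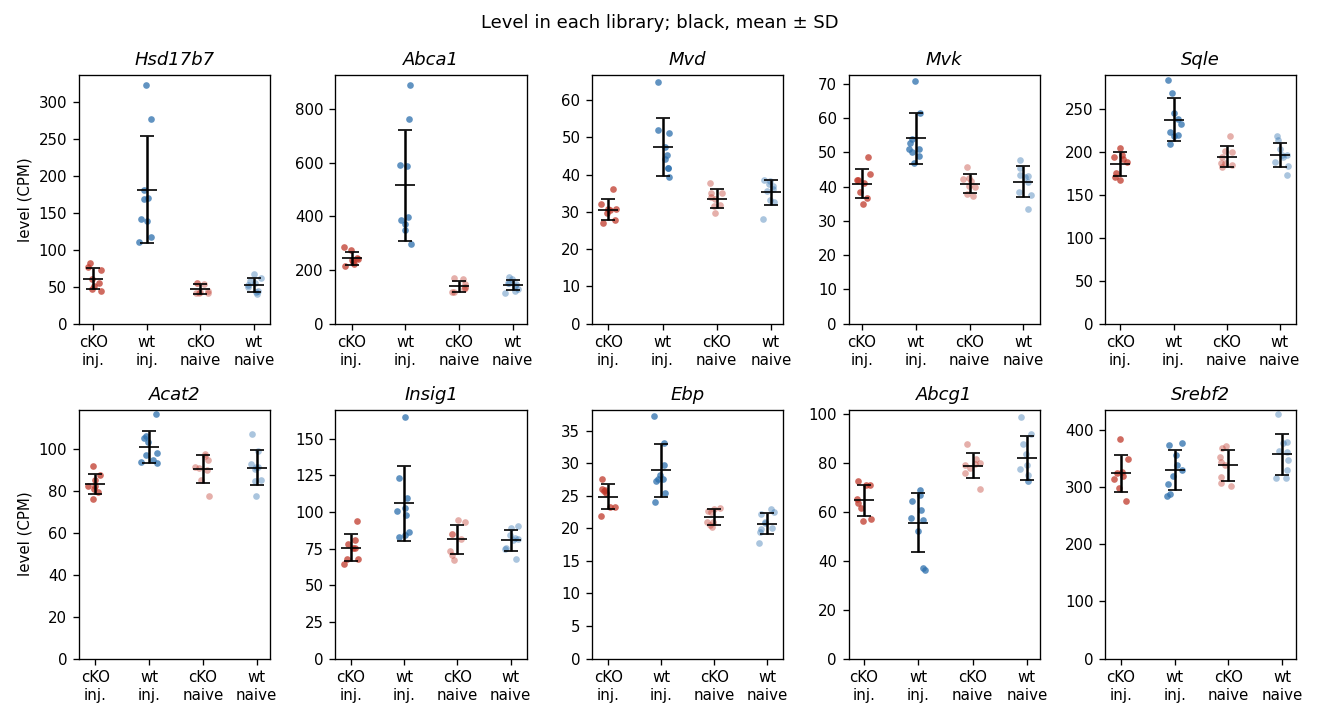
CPM in each library for 10 of the 28 genes, with the mean and SD of each group (cKO inj., n = 8; wt inj., n = 9; cKO naive, n = 8; wt naive, n = 9). For Hsd17b7, Abca1 and Mvd the wt injured libraries lie above the other 3 groups, from 111, 298 and 39.3 CPM upwards, and for Abcg1 they lie below wt naive.

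Over the 19 enzymes together, the fitted injury effect was above 0 for 3 genes in cKO mice and for 17 in wt mice. Its median was -0.1 and 0.15, against 0.02 over all genes in each genotype. In cKO mice 0 of the 19 were called, and in wt mice 6, all as higher. Of all genes, 3.19% were called in cKO mice, and in wt mice 14.3% as higher and 12.7% as lower. The enzymes' summed level was 1570, 1760 and 1970 CPM in cKO injured libraries, against 1930, 2070 and 2700 CPM in wt injured libraries (lowest, median, highest). It was 1680, 1800 and 2130 CPM in cKO naive and 1580, 1820 and 2150 CPM in wt naive libraries. Without Hsd17b7, the other 18 enzymes summed to medians of 1700, 1930, 1760 and 1770 CPM in the same order of groups. Mouse by mouse, the median log2 ratio over the 19 enzymes lay between -0.21 and 0.05 in the 8 cKO mice and between 0.06 and 0.32 in the 9 wt mice. The difference of the injury effects was below 0 for all 19 enzymes, with a median of -0.23 against 0.01 over all genes tested. Of the 19, 5 were called, where 2.84% of all genes were, 2.15% lower and 0.695% higher.

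The SREBP system was measured at the level of its transcripts only, not of cut SREBP protein. Of the 5 genes, none was called with injury in cKO mice, while in wt mice Insig1 was called as higher and Scap as lower. Of all genes, 3.19% were called in cKO mice, and in wt mice 14.3% as higher and 12.7% as lower. Insig1, which retains the SREBP-SCAP complex and is itself an SREBP target, had 64.4, 75.4 and 93.5 CPM in cKO injured libraries, against 82.85, 101 and 165 CPM in wt injured libraries. It had 67.3, 83.15 and 94.3 CPM in cKO naive and 68.0, 81.3 and 90.1 CPM in wt naive libraries. The groups overlapped, and wt-176 stood at 165 CPM where no other wt injured library exceeded 123 CPM. The injury effect was -0.11 in cKO mice (SE 0.11, adjusted p = 0.776; 2 of 8 mice higher), against a rise of 0.39 in wt mice (SE 0.10, adjusted p = 0.00344; 8 of 9 mice). It was lower in cKO mice on the injured side by -0.49 (SE 0.10, adjusted p = 0.00141), or -0.38 without wt-176. The call on the wt rise and that between genotypes were lost at high spacer share and within each sex, with the sign kept. The injury effects of Insig1 differed by -0.50 (SE 0.15, adjusted p = 0.0574), which did not pass, and by -0.47 with the block (adjusted p = 0.0133). DESeq2 and the spacer share as a covariate also called that difference.

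Scap had 84.8, 99.3 and 103 CPM in cKO injured libraries, against 73.1, 93.3 and 107 CPM in wt injured libraries. It had 86.4, 98.5 and 110.5 CPM in cKO naive and 91.1, 108 and 121.5 CPM in wt naive libraries. All groups overlapped. Its injury effect was -0.02 in cKO mice (SE 0.07, adjusted p = 0.961), with 4 of 8 mice lower, while in wt mice it fell by 0.19 (SE 0.07, adjusted p = 0.0357), in 9 of 9 mice. The wt call was lost without wt-176 and within each sex, and the block called the difference of the effects (0.17, adjusted p = 0.0397). Srebf2, which encodes the SREBP that mainly drives cholesterol synthesis, averaged 324 ± 32.4 CPM in cKO injured, 330.2 ± 34.8 CPM in wt injured, 338 ± 26.6 CPM in cKO naive and 357 ± 35.6 CPM in wt naive libraries (SD, n = 8, 9, 8 and 9). Its injury effect was -0.06 in cKO mice (adjusted p = 0.799) and -0.11 in wt mice (adjusted p = 0.157), where the block called it lower (adjusted p = 0.024). Srebf1, which also serves fatty acid synthesis, averaged 67.5 ± 12.4, 66.6 ± 11.3, 67.4 ± 11.6 and 69.8 ± 11.0 CPM in the same order of groups. Insig2, the paralogue of Insig1, averaged 21.1 ± 2.27, 19.4 ± 2.41, 21.9 ± 2.21 and 21.6 ± 2.57 CPM, and was called lower with injury in wt mice with the block (-0.16, adjusted p = 0.0167). DESeq2 and the spacer share as a covariate also gave that call for Insig2, and the covariate gave it for Srebf2. On the injured side the genotype differences were -0.02 for Srebf2 (adjusted p = 0.883), 0.04 for Srebf1 (adjusted p = 0.85) and 0.12 for Insig2 (adjusted p = 0.314). Their intervals of 2 SE ran, in that order, from -0.14 to 0.10, -0.15 to 0.23 and -0.02 to 0.26.

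**Figure D4:**
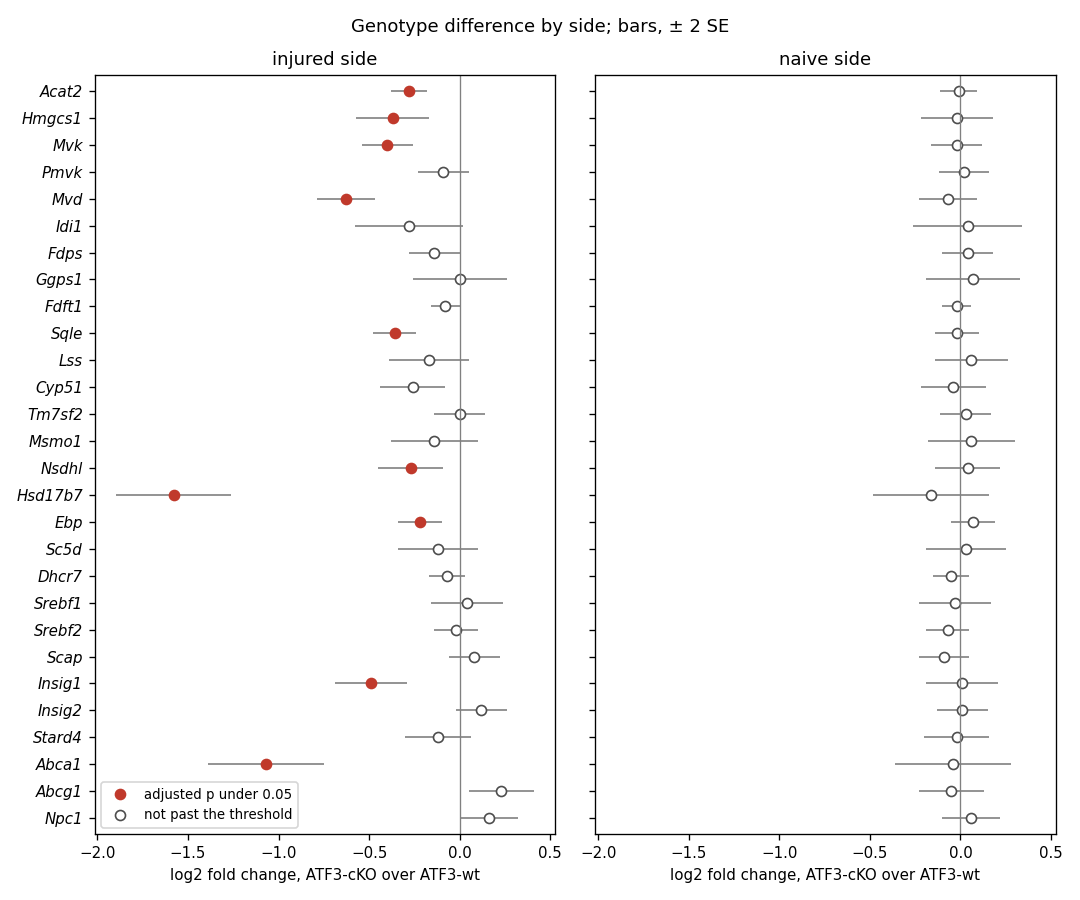
Log2 fold change, ATF3-cKO over ATF3-wt, of the 28 genes on the injured side (left) and the naive side (right); bars are 2 SE either way and filled points have an adjusted p under 0.05. On the injured side 10 points are filled, all below 0 and down to -1.58, and on the naive side none is.

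The transport genes held both exporters, and these moved in opposite directions. Abca1, which loads cholesterol onto apolipoproteins outside the cell, had 214, 239 and 287 CPM in cKO injured libraries, against 298, 398.5 and 889 CPM in wt injured libraries. It had 119, 133.5 and 171 CPM in cKO naive and 113, 149 and 175.4 CPM in wt naive libraries. The injured libraries lay above the naive ones in each genotype, and the cKO injured below the wt injured, all without overlap. In cKO mice, 1.42% of all genes had injured and naive groups that did not overlap. Abca1 rose by 0.80 in cKO mice (SE 0.16, adjusted p = 0.00182; 8 of 8 mice) and by 1.84 in wt mice (SE 0.16, adjusted p = 9.84e-11; 9 of 9 mice), or 3.57-fold. On the injured side it was lower in cKO mice by -1.07 (SE 0.16, adjusted p = 1.11e-05), and the injury effects differed by -1.03 (SE 0.22, adjusted p = 0.00573).

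Within subsets of mice, the cKO injury effect of Abca1 was 1.12 at low spacer share (adjusted p = 0.025), 0.62 at high share (adjusted p = 0.29), 0.67 in females (adjusted p = 0.307) and 1.01 in males (adjusted p = 0.109). The difference of the effects was -0.86 and -1.12 by share and -1.16 and -0.80 by sex, with adjusted p between 0.0906 and 0.969. Macrophages also express Abca1. The summed level of 12 macrophage markers was 15.9, 29.1 and 70.2 CPM in cKO injured, 27.6, 50.6 and 71.2 CPM in wt injured, 13.5, 23.7 and 45.7 CPM in cKO naive and 3.98, 15.9 and 30.6 CPM in wt naive libraries. Of the 12, 0 were called with injury in cKO mice and 10 rose in wt mice, 5 were lower in cKO than in wt mice on the injured side, and for 2 the injury effects differed. With the block these counts were 0 in cKO mice, 12 in wt mice and 6 for the difference of the effects. Of all genes, 3.19% were called with injury in cKO mice and 14.3% as higher in wt mice without the block. Between genotypes on the injured side 7.55% were lower, and 2.84% were called for the difference. With the block, the shares of all genes were 8.40% in cKO mice, 40.9% in wt mice and 7.53% for the difference. The part of macrophages in the result was not tested.

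Abcg1, which passes cholesterol to lipoproteins, had 56.2, 64.6 and 72.6 CPM in cKO injured libraries, against 36.2, 57.6 and 68.9 CPM in wt injured libraries. It had 69.45, 79.6 and 87.8 CPM in cKO naive and 72.75, 79.2 and 98.8 CPM in wt naive libraries. Injured and naive libraries overlapped in cKO mice and not in wt mice. The wt injured libraries lowest in Abcg1 were wt-176 and wt-172, at 36.2 and 36.9 CPM, which were the highest in Abca1, at 889 and 763.5 CPM. Abcg1 was lower on the injured side in all 17 mice. In cKO mice the value, -0.29 (SE 0.1, adjusted p = 0.114), missed the threshold, but passed it with the block (adjusted p = 0.037) and without wt-176 (adjusted p = 0.0298). In wt mice it fell by 0.56 (SE 0.09, adjusted p = 1.78e-05). The genotype difference on the injured side was 0.23 (SE 0.09, adjusted p = 0.125) and that of the injury effects 0.27 (SE 0.13, adjusted p = 0.367), and neither passed.

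Stard4, a cytosolic cholesterol carrier and SREBP target, averaged 71.6 ± 10.6 CPM in cKO injured, 77.3 ± 9.56 CPM in wt injured, 83.1 ± 11.2 CPM in cKO naive and 84.1 ± 11.9 CPM in wt naive libraries (SD, n = 8, 9, 8 and 9). It was lower on the injured side in 8 of 8 cKO and 8 of 9 wt mice. It passed only with the block (-0.22 in cKO mice, adjusted p = 0.00262; -0.12 in wt mice, adjusted p = 0.0214) or, in cKO mice, with the spacer share as a covariate. Npc1, which exports cholesterol from lysosomes, averaged 48.5 ± 6.08 and 43.5 ± 6.50 CPM in cKO and wt injured libraries and passed in no comparison.

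Genes beside the pathway were taken from 5 lists. Their counts stand against the shares of all genes called, 2.61% higher and 0.583% lower with injury in cKO mice, 14.3% higher and 12.7% lower in wt mice, and 3.57% higher and 7.55% lower in cKO than in wt mice on the injured side. Of 16 genes of fatty acid synthesis, which SREBPs also serve, 2 were lower with injury in cKO mice, while 3 rose and 4 fell in wt mice. After injury 4 of the 16 were lower in cKO than in wt mice. Acly, which makes cytosolic acetyl-CoA for both pathways, averaged 669 CPM in cKO injured, 805 CPM in wt injured, 682 CPM in cKO naive and 697 CPM in wt naive libraries, with a genotype difference of -0.27 (SE 0.05, adjusted p = 0.000265). Aacs, which makes acetoacetyl-CoA from ketone bodies, was at -0.26 on the injured side (SE 0.05, adjusted p = 0.00127). Acsl3, an acyl-CoA synthetase, fell by 0.37 in cKO mice (SE 0.07, adjusted p = 0.00175) and by 0.21 in wt mice (SE 0.07, adjusted p = 0.0248).

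Of 14 genes listed for SREBP processing and sterol-dependent degradation, 0 were called with injury in cKO mice and 3 rose in wt mice. On the injured side 2 were lower in cKO than in wt mice. The list also holds Nfya, which serves neither process and is counted both among the rises and among the lower genes. Nfya, a subunit of the CCAAT-binding NF-Y, rose by 0.36 in wt mice (SE 0.08, adjusted p = 0.00115) and was lower in cKO mice by -0.28 on the injured side (SE 0.09, adjusted p = 0.0313). Vcp, the ATPase that extracts ubiquitinated proteins from the membrane, rose by 0.18 in wt mice (SE 0.06, adjusted p = 0.0245). Of 18 further genes of sterol transport, 1 rose in cKO mice, and 2 rose and 2 fell in wt mice. After injury 2 were higher and 2 lower in cKO than in wt mice. Gramd1b and Gramd1a, paralogous carriers that take cholesterol from the plasma membrane, moved apart in wt mice, at -0.25 (SE 0.04, adjusted p = 9.29e-06) and 0.57 (SE 0.11, adjusted p = 0.000121). Between genotypes after injury Gramd1b was higher in cKO mice by 0.14 (adjusted p = 0.0192), Gramd1a lower by -0.36 (adjusted p = 0.0291), and Stard5, a sterol carrier, higher by 0.41 (SE 0.10, adjusted p = 0.00481).

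Of 9 genes listed for sterol conversion, 0 were called in cKO mice, and 2 rose and 2 fell in wt mice. The list holds genes that convert or esterify sterols, and also Acat1, which fell and does neither. The 3 with the smallest p were Acat1, the mitochondrial thiolase, at -0.19 (SE 0.05, adjusted p = 0.0027), Soat2, which esterifies cholesterol, at 0.60 (SE 0.15, adjusted p = 0.00308), and Hsd3b7, of bile acid synthesis, at 0.57 (SE 0.17, adjusted p = 0.0105). Soat2 and Hsd3b7 averaged under 2 CPM in every group. Of 13 genes of the isoprenoid branch, 0 were called in cKO mice, and 3 fell in wt mice. They were Icmt, which methylates prenylated proteins, at -0.30 (SE 0.07, adjusted p = 0.000964), Coq2, of ubiquinone synthesis, at -0.27 (SE 0.07, adjusted p = 0.00516), and Fnta, a subunit of the prenyl transferases, at -0.11 (SE 0.04, adjusted p = 0.0435). Without the block, none of the genes in these 5 lists was called for the difference of the injury effects, where 2.84% of all genes were. With the mouse as a block, that test called 1 gene of fatty acid synthesis higher and 2 lower, 2 of sterol transport higher and 1 lower, and 1 of SREBP processing lower, where it called 7.53% of all genes. With injury in wt mice, the block also called 9 of the 14 genes in the SREBP processing list higher. There it called 7 fatty acid genes higher and 5 lower, and 4 transport genes higher and 3 lower. Of the other lists, it called 3 conversion genes higher and 3 lower, and 2 isoprenoid genes higher and 5 lower. In cKO mice it called 3 fatty acid genes and 2 isoprenoid genes lower and 1 transport gene higher. Of all genes, the block called 40.9% in wt mice and 8.40% in cKO mice.

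Markers of other cells gave the following counts. They stand against the shares of all genes called with injury, 2.61% higher and 0.583% lower in cKO mice, 14.3% and 12.7% in wt mice. Between genotypes on the injured side the shares were 3.57% higher and 7.55% lower, and for the difference of the injury effects 0.695% and 2.15%. With the block, 8.40% of all genes were called in cKO mice, 40.9% in wt mice and 7.53% for the difference. Of 13 Schwann cell markers, 0 were called without the block, and with it 1 rose in cKO mice, 2 rose in wt mice and 1 was lower for the difference of the injury effects. Of 11 satellite glia markers, 1, Glul, rose in wt mice. It was lower in cKO than in wt mice on the injured side, and its injury effects differed. With the block, 2 of the 11 rose in cKO mice and 3 in wt mice. Of 5 neutrophil markers, Ly6g rose in wt mice, while 0 of 5 fibroblast and 0 of 5 endothelial markers were called. Of 10 sensory neuron markers, 0 were called with injury in cKO mice or between genotypes, and 1 rose and 5 fell in wt mice, while the block called 2 lower in cKO mice and 2 higher and 5 lower in wt mice.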

How the data were processed

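The data are the authors' raw counts, 1 value per gene and library, of total RNA sequenced with a stranded paired-end kit, per the labels' protocols. The submitters' processing notes name bcl2fastq 2.20, STAR, HTSeq and the build GRCm38. Of the annotation, the strand setting and the other versions the sources used here say nothing. Symbols matched 48349 of 48795 gene IDs, 0 rows had no gene ID, and 0 columns belonged to no sample.

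The test was edgeR 4.0.16 (R 4.3.3; TMM, filterByExpr, robust quasi-likelihood) on 34 libraries in a single fit of 4 groups and sex, with Benjamini-Hochberg adjustment over 19565 genes holding 99.97% of the counts. This test was tried on simulated counts for the wt injury effect only. Those counts had the same spread for every gene, no pairing of sides and no sex effect. Ratios per mouse used log2 CPM with a prior count of 2, and levels per kilobase GENCODE exon lengths on GRCm38. Alternatives were DESeq2 1.42.0, median-ratio scaling, no filter, spacer share as a covariate, subsets by share and sex, left-out mice and the mouse as a block. That block pairs the sides of 1 animal, whose deviations from the group means correlated with a median of 0.501 over 17 pairs (0.01 to 0.761; over 0.1 in 16). Libraries were compared for duplicates, of which there were 0: within a group, chi-square per degree of freedom was at least 8.61, where sampling noise alone gives about 1.

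The 28 genes and all lists were chosen with earlier results of these data known. Named genes were every member called in some comparison, the 5 SREBP genes, and up to 3 called genes per neighbouring list by p; other members appear by value or count. Genes that overlap others on the opposite strand, 11 of the 28, have uncertain counts. The values of 1 gene that this rule names are not reported here.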

Additional observations from a re-analysis of the deposited data

Results flagged for a closer look

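For 3 genes, a single library stood far from the rest of its group by Dixon's test, among 112 groups of values checked, where chance alone gives about 1 in 20. Mvd was at 64.9 CPM in wt-176, against 39.3 to 51.8 CPM in the other wt injured libraries, and Insig1 at 165 CPM in the same library, against 82.8 to 123 CPM. Fdps was at 52.3 CPM in cKO-130, against 39.6 to 45.3 CPM in the other cKO injured libraries. The library of wt-176 had the fewest counts of all 34, 35732193, and that mouse had the largest injured to naive ratio for 8 of the 8 members that rose in wt mice. Over the 19 enzymes of synthesis it was the highest wt mouse for 10 and the lowest for 6, and 11 of the 19 were higher on its injured side, against 13 to 17 in each other wt mouse.

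The injury effect differed between genotypes, by the test of the difference itself in edgeR, for 6 of the 28 genes. The difference, cKO minus wt on the log2 scale, was -1.42 for Hsd17b7 (ratios in 8 cKO mice all below those of 9 wt mice), -1.03 for Abca1, -0.56 for Mvd, -0.38 for Mvk, -0.34 for Sqle and -0.27 for Acat2.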

How the results depend on the processing

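No called member changed sign under any alternative run. With the mouse as a replicate block, 4 members were called with injury in cKO mice (1 without it), 21 in wt mice (10 without it) and 14 for the difference of the injury effects (6 without it). With the spacer share as a covariate the counts were 2 in cKO and 17 in wt mice, where 842 and 6541 of all genes were called. Without wt-176, left out after seeing the data, 2 members were called in cKO mice, where 926 of all genes were. In mice of high spacer share 0 were called in cKO mice and 1 for the difference of the effects, and at low share 0 for that difference. Within females 0 were called in cKO mice, 6 between genotypes on the injured side and 1 for the difference. Within males the counts were 0 in cKO mice, 3 in wt mice, 2 between genotypes and 0 for the difference. Subsets hold fewer mice; beyond that, the cause of these shifts was not tested. Of all genes, injury called 624 in cKO and 5283 in wt mice, 2175 differed between genotypes on the injured side and 556 in their injury effects. The block moved these to 1643 in cKO mice, 8003 in wt mice and 1474 for the effects. In the same order the 4 counts were 249, 3269, 1026 and 9 at low share, 126, 2923, 718 and 67 in females, and 99, 814, 102 and 0 in males. At high share, 136 genes were called higher and 5 lower in cKO mice, and the other 3 counts were 3197, 1026 and 65. Among 140 single values (28 members, 5 comparisons), median-ratio scaling changed no call, DESeq2 added 3, and dropping the filter on low counts lost 5. Leaving out cKO-131 and wt-150 lost 3 calls, and leaving out wt-176 lost 4 and added 1. Median-ratio scaling moved the median of all genes by at most 0.016 (log2).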
